A study of Mus musculus with 5 samples.

Results

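JNK scaffolds and MAP kinases are described here as a set of 8 mouse genes, taken by name, with the REST peaks called around each of them in the embryonic pancreas. The set holds 3 scaffold genes of the JNK (c-Jun N-terminal kinase) cascade (Mapk8ip1, Mapk8ip2 and Mapk8ip3), 2 JNK genes (Mapk8 and Mapk10), 2 p38 genes (Mapk11 and Mapk12) and 1 ERK (extracellular signal-regulated kinase) gene (Mapk3). They are 8 of 22380 protein-coding genes annotated on mm9, the mouse assembly of the peak files. A peak was given to a gene when it lay inside the gene body or within 50 kb of the gene start, and this rule used no measured value. The study asked where REST binds in this organ, and chromatin was precipitated with the antibody 12C11, a mouse monoclonal against REST. At E18.5 there were 3 libraries (A, B and C) made from 3 to 4 pooled pancreases each, and at E13.5 there were 2 (A and B) made from 4 to 6 pooled pancreases each. All 5 libraries came from untreated wild-type embryos of a mixed strain with C57BL/6, and the 2 stages shared no embryos. Whole pancreas holds epithelial, mesenchymal and other cells, so fewer cells with REST at a site and less REST per cell cannot be told apart. Expression was not analysed here, so the tissue was not checked against marker genes.

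MAP kinase cascades pass signals from a MAP3 kinase to a MAP2 kinase and on to a MAP kinase, each phosphorylating the next. The JNK and p38 branches respond mainly to stress and cytokines, and the ERK branch mainly to growth factors. The JIP proteins encoded by the Mapk8ip genes hold JNK together with the kinases above it, and the JIP1 and JIP2 proteins are abundant in neurons and pancreatic beta cells. REST, named for silencing through the DNA element RE1, is a repressor with zinc fingers that holds many neuronal genes silent outside the nervous system.

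Of the 8 genes, 4 had a site in both E13.5 libraries: the scaffold genes Mapk8ip1 and Mapk8ip2 and the p38 genes Mapk11 and Mapk12. They had it through only 3 sites, since Mapk11 and Mapk12 are neighbours and shared one. Mapk8ip3 had a peak in a single E18.5 library, and Mapk8, Mapk10 and Mapk3 had no peak in any library under this rule. The study itself named Mapk8ip1, Mapk8ip2 and Mapk11 among its REST-bound genes. It also named Mapk10, and it named Mapk3 as a bound gene that was up-regulated when Rest was inactivated. It called peaks on the pooled reads of the E13.5 libraries and gave them to genes by another rule, so the calls differ in both respects. Each of the 3 sites was centred just upstream of a gene start, and the Mapk8ip1 site also spanned it. Their sequences are shown because 2 of them hold a contiguous RE1-like element and the third holds its left and right parts at a wider spacing. Each line is the E13.5 A peak in mm9, read on the strand of the match, and capitals mark the bases matched to an RE1-like matrix of 21 columns learned from the other E13.5 sites.
Mapk8ip1 site, chr2:92241462-92241634, minus strand: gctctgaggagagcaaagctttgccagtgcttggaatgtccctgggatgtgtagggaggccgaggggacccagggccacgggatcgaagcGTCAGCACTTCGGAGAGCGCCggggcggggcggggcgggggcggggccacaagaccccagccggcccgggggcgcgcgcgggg
Mapk8ip2 site, chr15:89283827-89284014, plus strand: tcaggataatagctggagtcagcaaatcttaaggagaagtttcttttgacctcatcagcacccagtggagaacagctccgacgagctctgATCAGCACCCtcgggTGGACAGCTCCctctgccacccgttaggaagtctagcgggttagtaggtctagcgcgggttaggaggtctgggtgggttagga
Mapk11 and Mapk12 site, chr15:88980628-88980794, plus strand: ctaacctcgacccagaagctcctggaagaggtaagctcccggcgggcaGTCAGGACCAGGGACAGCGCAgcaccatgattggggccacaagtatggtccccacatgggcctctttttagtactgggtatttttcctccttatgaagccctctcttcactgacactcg

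The peaks ran over 173, 188 and 167 bp in that order, and none of them overlapped an annotated exon. The Mapk8ip1 peak was 73.4% G and C, against a median of 53.6% (quartiles 48.5 to 58.1%) over 1189 E13.5 A peaks at sites that E13.5 B also held. The Mapk8ip2 peak had 54.3% and the Mapk11 and Mapk12 peak 55.7%, both within those quartiles.

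The lists differed in length, which bears on every count of peaks. The E18.5 libraries held 541, 417 and 226 peaks in A, B and C, and the E13.5 libraries 1400 and 1333 in A and B. Median peak length was 311, 319 and 394.5 bp in the E18.5 libraries and 161 and 483 bp in the E13.5 libraries. Read depth is unknown, so a missing peak was not called and is no measurement of absent binding. The authors' score of a peak, a whole number without a stated unit, was used only for rank within its library, given as a percentile where 100 is the highest. Overlapping peaks of the 5 libraries made 1860 sites, of which 1186 were called in both E13.5 libraries.

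Mapk8ip1 encodes JIP1, the founding JNK scaffold. Its gene (chromosome 2, 92223833 to 92241420, minus strand) had 1 site at its start (92241237 to 92241786) that was called in 3 of the 5 libraries. At that site the score percentile was 73.6 in E18.5 B (rank 98 of 417), while no peak was called in E18.5 A or C. It was 62.6 in E13.5 A (rank 500 of 1400) and 44.3 in E13.5 B (rank 708 of 1333). The highest rank within its list was therefore that of an E18.5 library. The peak centres lay 4 bp upstream of the start in E18.5 B and 128 and 181 bp upstream in E13.5 A and B. The E18.5 B and E13.5 B peaks reached into an exon of Mapk8ip1. A second peak of E18.5 B (chromosome 2, 92271387 to 92271683) fell within the window, 30.1 kb upstream, at percentile 29.5. It lay inside Cry2, a clock repressor gene whose own start was nearest, and was called in no other library.

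Mapk8ip2 encodes JIP2, a scaffold related to JIP1. Its gene (chromosome 15, 89284344 to 89294899, plus strand) had the best-ranked E13.5 site of the 8 genes (89283668 to 89284202). The score percentile was 14.4 in E18.5 C (rank 187 of 226), and no peak was called in E18.5 A or B. It was 93.6 in E13.5 A (rank 86 of 1400) and 89.5 in E13.5 B (rank 133 of 1333). The site was thus among the higher scores of both E13.5 libraries and among the lower scores of the only E18.5 library that held it. Peak centres were 482 bp upstream of the start in E18.5 C, and 424 and 409 bp upstream in E13.5 A and B.

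Mapk8ip3 encodes JIP3, a scaffold that also links cargo to kinesin motors. Its gene (chromosome 17, 25029098 to 25073922, minus strand) had a single peak, in E18.5 A (25065320 to 25065621), at percentile 48.2 (rank 239 of 541). The peak lay in an intron 8.45 kb downstream of the start. No other E18.5 library and neither E13.5 library had a peak under the rule.

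**Figure D1:**
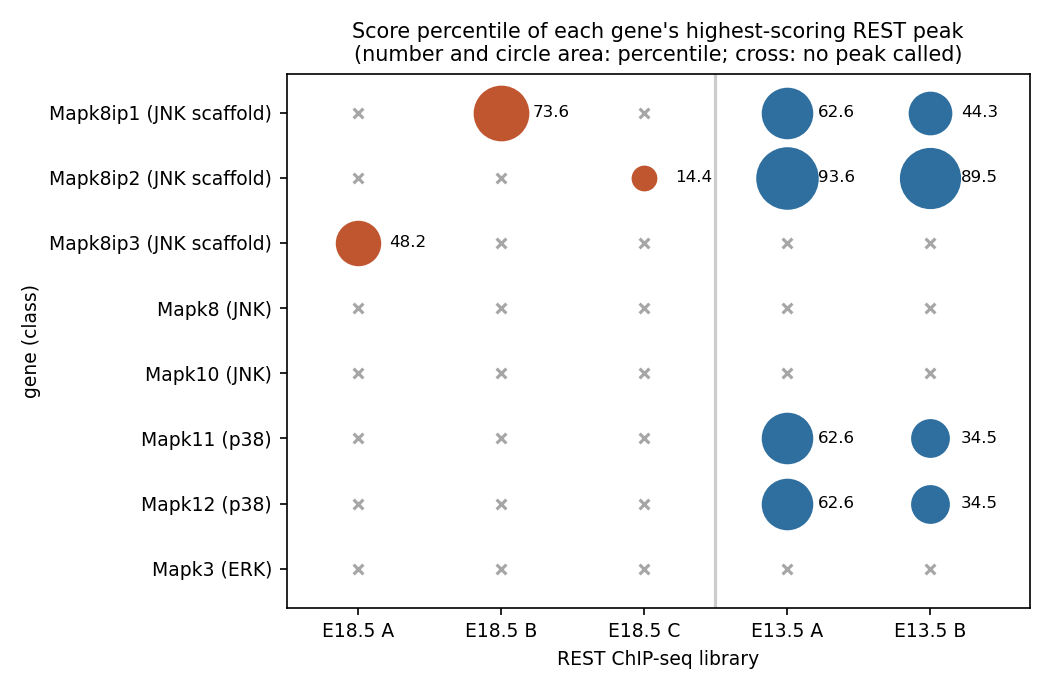
Score percentile (circle area and number, 100 the highest of its library) of the highest-scoring REST peak of each gene (rows) in the 3 E18.5 libraries (left, orange) and the 2 E13.5 libraries (right, blue), with a cross where no peak was called. Mapk8ip2 reached 93.6 and 89.5 in E13.5 A and B and 14.4 in E18.5 C, and the rows of Mapk8, Mapk10 and Mapk3 hold crosses alone.

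Neither JNK gene had a peak under the rule. Mapk8 encodes JNK1, found in most tissues (chromosome 14, 34191084 to 34260344, minus strand), and Mapk10 encodes JNK3, best known from brain (chromosome 5, 103336967 to 103640353, minus strand). At 303 kb, the body of Mapk10 is the longest of the 8 genes and gives the rule the most sequence, 353 kb with the window. The nearest peak to Mapk8 was outside the rule, 79.6 kb upstream of the start, in E13.5 A alone at percentile 4.21. For Mapk10 no peak was called within 200 kb of the start either.

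Mapk11 encodes p38 beta (chromosome 15, 88972916 to 88980036, minus strand) and Mapk12 p38 gamma (88961015 to 88971133, minus strand). They lie head to tail, and 1 site (88980564 to 88980879) served both. No peak was called there in E18.5 A, B or C. The score percentile was 62.6 in E13.5 A (rank 500 of 1400) and 34.5 in E13.5 B (rank 848 of 1333). In E13.5 A its score of 17 was tied with that of the Mapk8ip1 site. The peak centres were 675 and 685 bp upstream of the Mapk11 start and 9.58 and 9.59 kb upstream of the Mapk12 start in E13.5 A and B. Mapk11 had the nearest start, so Mapk12 counts here only through the width of the window.

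Mapk3 encodes ERK1 (chromosome 7, 133903115 to 133909333, plus strand). It had no peak under the rule, but a site called in both E13.5 libraries lay within Fam57b in an intron, 66.0 kb downstream of the Mapk3 start. There the score percentile was 33.1 in E13.5 A and 60.3 in E13.5 B, and no E18.5 library had a peak. The values on either side of the 50 kb limit were thus 30.1 kb for the farthest peak inside and 66.0 kb for the nearest outside.

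**Figure D2:**
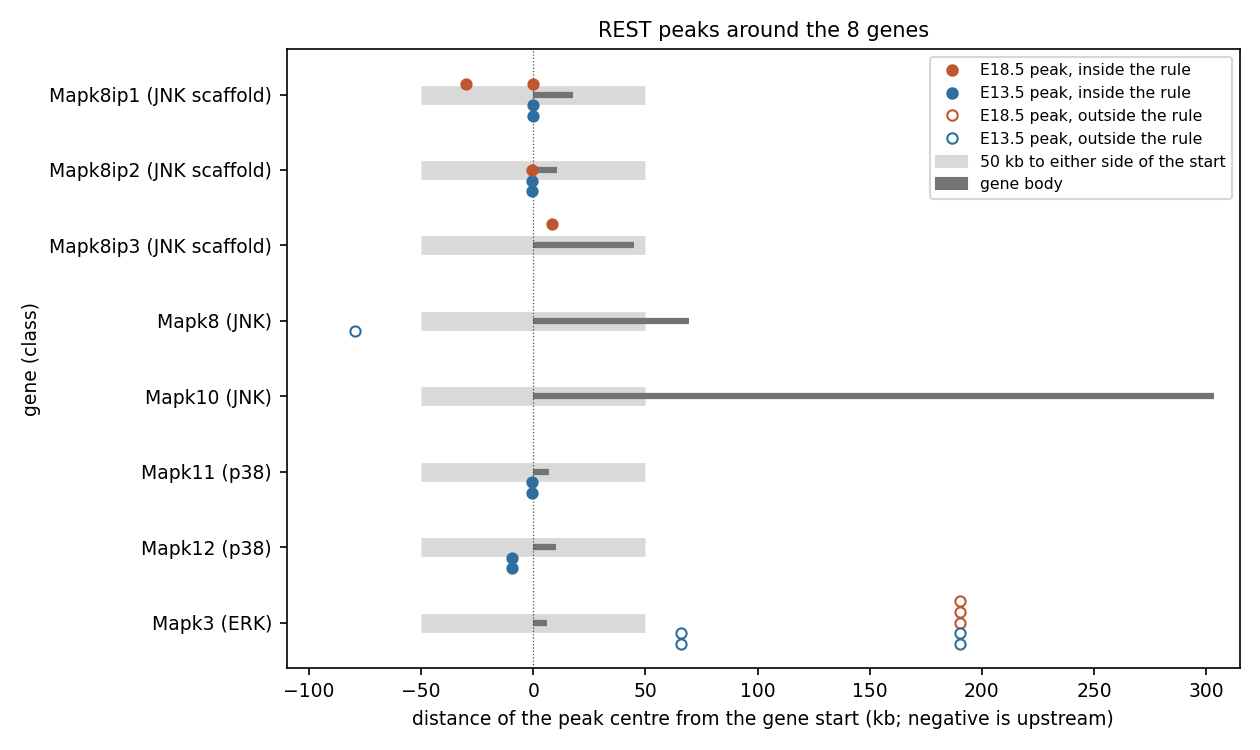
Distance of each REST peak centre from the gene start (kb, negative is upstream) for the 8 genes (rows), with E18.5 peaks in orange above E13.5 peaks in blue, filled inside the rule and open outside it up to 200 kb. Peaks of Mapk8ip1, Mapk8ip2 and Mapk11 pile up at the start, while Mapk3 has open symbols alone at 66.0 kb and beyond.

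Read against all protein-coding genes, 0 of the 8 had overlapping peaks in at least 2 of the 3 E18.5 libraries (background 2.19%) and 4 of the 8 had a site in both E13.5 libraries (background 6.87%). In any E18.5 library 3 of 8 had a peak, against 4.96% of all genes, and in any of the 5 libraries 5 of 8, against 9.8%. By library, the count was 1 of 8 in E18.5 A (background 3.27%), 1 of 8 in E18.5 B (3.05%), 1 of 8 in E18.5 C (1.97%), 4 of 8 in E13.5 A (7.83%) and 4 of 8 in E13.5 B (7.57%). The gene with a peak was a different scaffold in each E18.5 library. Some of the genes were named by the study from these E13.5 samples, so these shares are not independent evidence for the set, and no test was made over it. A site centred within 1 kb upstream of the start was a narrower call, chosen after the values were seen. It held for 3 of the 8 genes (Mapk8ip1, Mapk8ip2 and Mapk11), against 0.313% of all genes. Of the 1186 sites called in both E13.5 libraries, 68 (5.73%) lay so placed at some protein-coding gene.

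Between stages, Mapk11 and Mapk12 had a peak in 0 of 3 E18.5 libraries and 2 of 2 E13.5 libraries (exact two-sided permutation test over libraries, p = 0.2 for each). With 10 ways to assign the libraries and the p of the smaller tail doubled, this is the smallest p the test allows. No gene could therefore reach significance by it. Mapk8ip1 and Mapk8ip2 each had a peak in 1 of 3 E18.5 libraries and 2 of 2 E13.5 libraries (exact p = 0.6 for each), and Mapk8ip3 in 1 of 3 and 0 of 2 (exact p = 1). List length moved with stage. When each library was held to its 226 highest-scoring peaks, Mapk8ip2 had its peaks in 1 of 3 E18.5 and 2 of 2 E13.5 libraries, the E18.5 one in library C, whose list of 226 was not shortened. With the upper 50% of each list by score, Mapk8ip2 had a peak in 0 of 3 E18.5 and 2 of 2 E13.5 libraries. With 226 peaks a library, Mapk8ip1 had a peak in 1 of 3 E18.5 and 0 of 2 E13.5 libraries, the opposite direction, and Mapk11, Mapk12 and Mapk8ip3 had none in any library.

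Other genes shared these sites under the same rule, so a site is not tied to one of the 8 genes by it. The median was 1 protein-coding gene per site (quartiles 1 to 2) over the 1186 sites shared by both E13.5 libraries. The Mapk8ip2 site had 8 such genes: Mapk8ip2 itself, Arsa, C730034F03Rik, Chkb, Cpt1b, Gm17583, Syce3 and Shank3, which encodes a postsynaptic scaffold. The Mapk11 and Mapk12 site had 6, adding Fam116b, Hdac10, Plxnb2 and Tubgcp6. The Mapk8ip1 start site had 5, adding 1700029I15Rik, Cry2, Gyltl1b and Pex16. The Mapk8ip3 site had 7, adding Eme2, Hn1l, Mrps34, Nme3, Nubp2 and Spsb3. The peak in Cry2 had 4, Mapk8ip1 among them with Slc35c1. The nearest start belonged to one of the 8 genes at all of these sites except the peak in Cry2.

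An RE1-like matrix was learned from 1179 sites called in both E13.5 libraries, leaving out those near the 8 genes, and each site was searched 100 bp to either side of its centre on both strands. A match was called above a score that 1% of control windows 10 kb away exceeded, a log2 score of 8.10. Matches were found at 966 of 1183 sites (81.7%) and at 11 of 1183 control windows (0.930%). The matrix came from nearly all of these sites and the threshold from such windows, so this contrast is a description and no test. Of the 5 sites of the 8 genes, 2 had a match. The Mapk11 and Mapk12 site held one at a log2 score of 24.95, with 4 mismatches to the most common base of each column. Its centre lay 650 bp upstream of the Mapk11 start. The Mapk8ip1 start site held one at 23.14, with 5 mismatches, 114 bp upstream. Matched sites had a median score of 25.57 and a median of 4 mismatches (quartiles 3 to 5), so both matches scored below the median site. The best scores at the Mapk8ip3 site and at the peak in Cry2 were -2.76 and -6.15, with 10 and 11 mismatches, and both sites were called in 1 E18.5 library alone.

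Mapk8ip2 differed: the best-ranked E13.5 site of the set had no contiguous match, with a best log2 score of 3.55. In an alternative chosen after that sequence was seen, the matrix was divided into a left part of 10 columns and a right part of 11, with up to 12 extra bases between them. The Mapk8ip2 site then scored 29.25, with 5 extra bases and 3 mismatches over both parts (chr15:89283917-89283942, plus strand). The threshold was 14.31, again set so that 1% of control windows exceeded it, which fixes their share in advance. Among the 1183 sites searched, 217 had no contiguous match. Of these, 133 (61.3%) passed with the parts separated, against 2 of 217 control windows (0.922%), and 122 of the 133 had 5 to 8 extra bases. A spacing of 5, as at Mapk8ip2, was found at 19 sites. With no extra base or up to 12 allowed, 91.3% of the searched sites passed the threshold of 14.31, and 3 of the 5 sites of the 8 genes did. The Mapk8ip3 site and the peak in Cry2 passed neither this search nor the contiguous one.

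**Figure D3:**
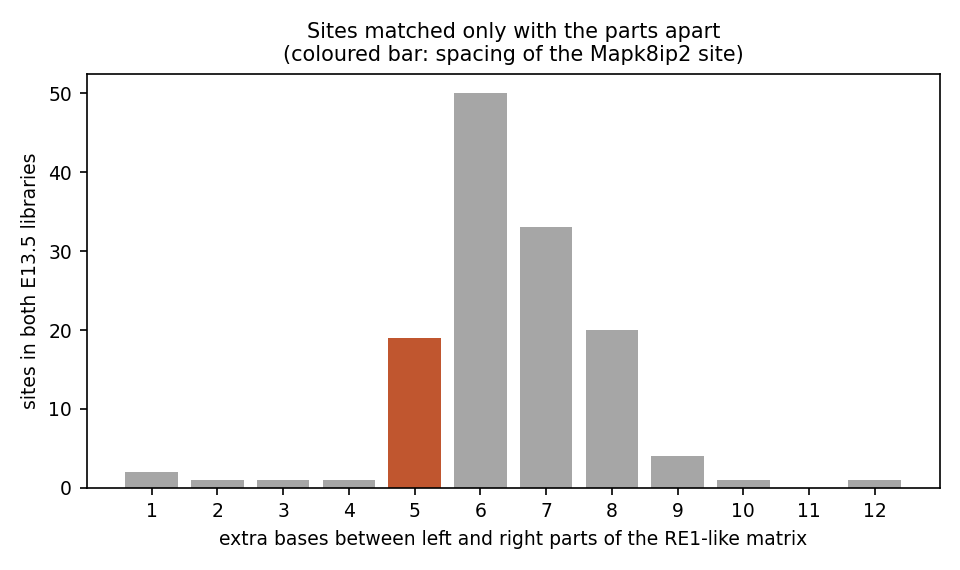
Number of sites called in both E13.5 libraries (vertical axis) by the extra bases between the left and right parts of the RE1-like matrix (horizontal axis), for sites that had no contiguous match. The coloured bar at 5 extra bases holds 19 sites, the Mapk8ip2 site among them, and the tallest bar is at 6 with 50 sites.

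The best match of each gene without a peak is set beside the matches under peaks. Lines give the mm9 position and strand, and capitals mark matched bases. In the Mapk8ip2 line the lower-case bases are the extra ones.
Mapk8ip1, peak called, chr2:92241524-92241544, minus strand: GTCAGCACTTCGGAGAGCGCC
Mapk8ip2, peak called, chr15:89283917-89283942, plus strand: ATCAGCACCCtcgggTGGACAGCTCC
Mapk11 and Mapk12, peak called, chr15:88980676-88980696, plus strand: GTCAGGACCAGGGACAGCGCA
Mapk8, no peak called, chr14:34269357-34269377, minus strand: TCCACCACCAGGGAAAGCTCT
Mapk10, no peak called, chr5:103358726-103358746, plus strand: TCTAGCACCTGGGACTGCTCC
Mapk3, within 50 kb, no peak called, chr7:133951072-133951092, plus strand: CTCAGTACCTGGGACAGTGCC
Mapk3, beyond 50 kb, peak called, chr7:133969153-133969173, minus strand: ATCAGCACCACGGACAGGGCC

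Genes without a peak were not without matches. Within the gene body and 50 kb of the start, Mapk8 had 6 matches past the threshold (best log2 score 12.87), Mapk10 had 11 (best 15.25) and Mapk3 had 4 (best 21.69), none with a peak. Mapk8ip1 had 11 matches, of which 1 had a peak, Mapk11 had 5 and Mapk12 had 7, of which 5 were shared and 1 of those had a peak. Mapk8ip2 had 4 contiguous matches (best 11.89) and Mapk8ip3 had 9 (best 16.88), all without a peak. The best match of Mapk3 lay 48.0 kb downstream of its start with 5 mismatches, the same number as at Mapk8ip1, where a peak was called. The match under the peak 66.0 kb downstream of Mapk3 scored 27.57, with 3 mismatches.

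Over the whole genome, 92858 positions passed the threshold and 1138 of them (1.23%) lay in a site called in both E13.5 libraries. The share was 0.118% for log2 scores up to 14, 0.900% between 14 and 18, 3.50% between 18 and 20, 15.7% between 20 and 22, 35.8% between 22 and 24, and 76.6% above 24. The matrix came from such sites, so this order is a description and no test. The called match of Mapk11 and Mapk12 fell in the highest of these ranges and that of Mapk8ip1 in the next. The uncalled best match of Mapk3 fell in the 20 to 22 range, that of Mapk10 and that of Mapk8ip3 in the 14 to 18 range, and those of Mapk8 and Mapk8ip2 below 14.

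**Figure D4:**
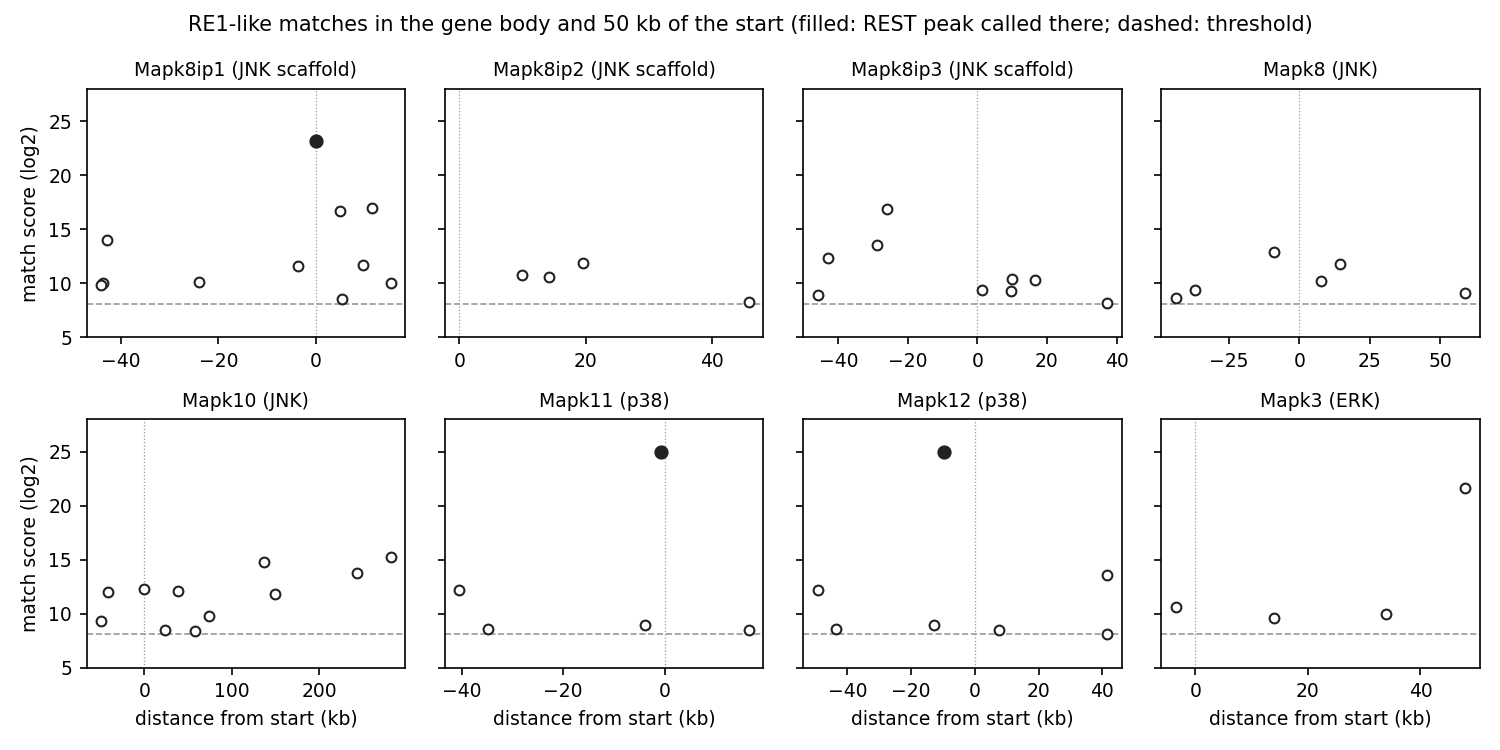
Log2 score of each RE1-like match past the threshold (dashed line) against its distance from the gene start (kb, negative is upstream), 1 panel per gene with its own horizontal range, filled where a REST peak was called. The filled points at 23.14 for Mapk8ip1 and at 24.95 for Mapk11 and Mapk12 are the highest in their panels, and the open point at 21.69 is that of Mapk3.

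A list of 72 other MAP kinase pathway genes, all matched in the annotation, had 5 with a site in both E13.5 libraries (6.94%, close to the 6.87% of all genes), 0 with one in at least 2 E18.5 libraries, and 8 with a peak in any library (11.1%, against 9.8% of all genes). The 5 were 3 MAP3 kinase genes of 19 listed (Map3k2, Map3k9 and Map3k10), 1 MAP kinase gene of 9 (Nlk) and 1 effector kinase gene of 10 (Mknk1). No gene of 7 MAP2 kinases, 13 phosphatases, 7 further scaffolds or 7 target transcription factors had such a site. At the 6.87% of all genes, a class of such a size would often hold none. None of the 72 genes had a site centred within 1 kb upstream of its start. Over all genes the share was 0.313%, at which a list of 72 would mostly hold none.

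Map3k9 and Map3k10 encode mixed-lineage kinases, which are among the MAP3 kinases that JIP scaffolds bind. Map3k11, Map3k12 and Map3k13, listed as well, had no peak in any library. Map3k9 had a site 4.80 kb downstream of its start, with a score percentile of 27.0 in E18.5 A, 54.8 in E13.5 A and 39.0 in E13.5 B, and no peak in E18.5 B or C. It held an RE1-like match at a log2 score of 13.34. The site given to Map3k10 was 20.7 kb downstream of its start, at percentiles of 49.7 in E13.5 A and 49.3 in E13.5 B, with no E18.5 peak. The nearest start there was that of Ttc9b, and the match scored 20.90. The other 3 sites lay 33.6 kb (Nlk), 42.9 kb (Map3k2) and 47.9 kb (Mknk1) from the start, each nearer to the start of another gene.

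The genes whose percentiles over the 5 libraries were nearest to those of the bound genes, with 0 where no peak was called, were taken from 2166 other genes by Euclidean distance. For Mapk8ip2 they included Lemd2 (distance 6.45) and Cd300e (11.7). For Mapk11 and Mapk12 they were Cyp19a1 and Gldn, which shared one pattern (3.39), and Acaa1a (3.68). For Mapk8ip1 they were Phactr3 (17.8) and then Lrp3 and Slc7a10 (18.6). Thus none of the 2166 genes compared came within 17.8 of Mapk8ip1, the widest such gap among the 4 genes.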

How the data were processed

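REST ChIP-seq was deposited as 1 list of peaks per library. Per the study's methods and the submitters' notes, the authors aligned single-end reads with Bowtie2 2.2.5, filtered them with SAMtools and used MACS2 2.1.0 with input DNA as control for peak calling. The deposited score of each peak is an integer, and its unit was not given. The notes name NCBI36 and mm9. Of the peaks, 3892 lay on sequences named as in mm9, 0 of them past the end of one, and 25 lay on other names. Overlapping entries of a library were merged with the highest score kept, and positions count from 1.

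Genes came from the GENCODE annotation of NCBIM37 (mm9), where the start is the 5′ end of the gene record. Libraries shared a site when peaks overlapped by at least 1 bp. Stages were compared by exact permutation over libraries. Calculations used Python 3.11.15, NumPy 2.4.6 and SciPy 1.17.1, and the matrix search was tested on simulated data. All 8 genes, those sharing their sites, listed pathway genes with a site in both E13.5 libraries, and the 3 genes nearest in pattern are named, except 1 that is not reported here. The members and lists were chosen with earlier results of these data known. The libraries are separate pools of embryos. The p-values come from reassigning called or uncalled peaks over these libraries, so list length and read depth enter them together with stage. Alternatives changed the window, the gene start, the peaks kept, the overlap, the libraries and the search settings.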

Additional observations from a re-analysis of the deposited data

How the results depend on the processing

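Of 59 recomputed counts over the 8 genes, the pathway list and the sites, 49 stayed within 1.5 times the reported value and 10 did not. Some of the 49 could not move, such as the E18.5 count of 0 when fewer peaks or libraries were kept. The tally is therefore no measure of stability. The 8 genes had 4 with a site in both E13.5 libraries as reported, 1 (Mapk8ip2) with only the 226 highest-scoring peaks of each library, 1 (Mapk8ip2) with the upper 50% of each list by score, and 2 (Mapk11 and Mapk12) where a shared site needed an overlap of 50% of both peaks. The same settings called 1.47%, 3.78% and 0.617% of all genes. The 50% rule acts on peak length, since E13.5 A peaks are shorter than E13.5 B peaks. With the 226 highest-scoring peaks, 2 of the 8 genes had a peak in any library, against 5. The pathway count, 5 as reported, was 1 with a window of 5 kb, 1 with 10 kb, 11 with 100 kb, and 0 with the 226 highest-scoring peaks, with the upper 50% by score and with the 50% rule. Of the 8 genes, the number with a site centred within 1 kb upstream of the start, 3 as reported, was 2 within 500 bp, 3 within 2 kb and 3 from the start of any annotated transcript. Within a window of 5 kb Mapk12 had no peak, and within 100 kb Mapk8 and Mapk3 gained E13.5 peaks. Leaving out each library in turn gave 4 genes in each case with a site in every E13.5 library kept, 0 in each case with one in 2 E18.5 libraries, 4 to 5 with a peak in any library and 5 to 6 pathway genes. Most of these counts had little room to move. Leaving out an E18.5 library cannot change a count over E13.5 libraries or raise the E18.5 count from 0. Leaving out an E13.5 library asks for a peak in the other alone, so that count can only hold or rise. Without E18.5 A, Mapk8ip3 had no peak. The count of sites with a contiguous RE1-like match was 2 of 5 at a threshold passed by 0.1% of control windows, over 250 bp to either side and with a matrix from the upper 50% of sites by score. No paired analysis was possible because a letter shared by 2 libraries of different stages names separate pools of embryos. Read depth is unknown and limits what a missing peak can show.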

Other observations

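Farther from Mapk3, 190 kb downstream of its start and outside the rule, 1 site was called in all 5 libraries. Its score percentile was 76.7, 53.4 and 90.0 in E18.5 A, B and C, and 95.3 and 94.3 in E13.5 A and B. The nearest start was that of Asphd1. The best contiguous RE1-like score there was 7.96, just under the threshold of 8.10.

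The search that allowed the left and right parts of the RE1-like matrix to lie apart kept the best score over all spacings, contiguous included. Its score is therefore never below the contiguous one, and a higher score alone does not show a separated element. Of the 5 pathway genes with a site in both E13.5 libraries, 4 had a site with a higher score in that search. All 5 passed its threshold of 14.31, which was set on control windows searched in the same way. Of the 1183 sites searched, 91.3% passed it as well, so passing is not particular to the sites of these genes. The Nlk site scored 32.14 with 6 extra bases, against 10.61 for a contiguous match. The Mknk1 site scored 29.05 with 9 extra bases, against 3.42. The Map3k2 site scored 19.95 with 6 extra bases, against 16.56, and the Map3k9 site 16.82 with 12, against 13.34. Among the 133 sites that had no contiguous match and passed with the parts separated, 12 extra bases were found at 1. The Map3k10 site scored highest with no extra base, at 20.90. These searches were added after the data were seen, and each concerns a single site.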
